A study of Homo sapiens with 36 samples.

Results

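The first 3 days of neuron induction were followed in the RAI1-/- (KO) line by comparing its 4 libraries of day 3 with its 4 libraries of day 0, chosen by their titles, 8 of the 36 libraries of the series. The series holds H9 human embryonic stem cells labelled wild type (WT), RAI1+/- (HET) or RAI1-/- (KO), sampled on days 0, 3 and 7 of induction with 4 replicates in each of 9 groups. All lines were kept as stem cells on Geltrex in mTeSR Plus with the ROCK inhibitor Y-27632 at plating, and all carried NGN2, the product of the NEUROG2 gene, under doxycycline control. The induced cultures were held in Neurobasal-A with GlutaMAX, B27, GDNF, NT3 and CultureOne. Day 0 of KO is thus the KO stem cell line before induction, and day 3 of KO is the same line 3 days later. The labels call every sample an iNeuron and each replicate biological, and do not say whether a genotype is 1 clone or several. Where replicates came from 1 culture, p-values measure only the spread between these libraries.

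NGN2 is a proneural basic helix-loop-helix transcription factor. With E-protein partners it binds E-box DNA, switches on further neurogenic factors such as NEUROD1, NEUROD4 and the EBF genes, and drives stem cells directly toward neurons. In the embryo the same factor raises Notch ligands in the differentiating cell, while HES proteins downstream of Notch hold neighbouring cells back. RAI1 is a chromatin regulator whose haploinsufficiency underlies Smith-Magenis syndrome.

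The promoters below belong to the genes with the largest rises in KO, the place where a proneural factor could be sought in sequence. NEUROG2, UNCX and NEUROD1 are the first of the 10 largest rises that the RefSeq promoter table (GRCh38.p14) holds, and NHLH1 was added after its values were seen. Each is the 250 bases before the annotated start, 5′ to 3′ on the gene's strand, and capitals mark the E-boxes CAGATG or CAGCTG, searched on both strands. CAGCTG reads the same on both strands and the motifs do not overlap.
NEUROG2 (chr4:112516181-112516430, minus strand): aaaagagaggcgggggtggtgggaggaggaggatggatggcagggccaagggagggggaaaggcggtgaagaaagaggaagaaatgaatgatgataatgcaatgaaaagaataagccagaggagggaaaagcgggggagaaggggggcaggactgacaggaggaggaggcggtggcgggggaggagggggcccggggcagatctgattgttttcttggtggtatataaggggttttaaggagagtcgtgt
UNCX (chr7:1232622-1232871, plus strand): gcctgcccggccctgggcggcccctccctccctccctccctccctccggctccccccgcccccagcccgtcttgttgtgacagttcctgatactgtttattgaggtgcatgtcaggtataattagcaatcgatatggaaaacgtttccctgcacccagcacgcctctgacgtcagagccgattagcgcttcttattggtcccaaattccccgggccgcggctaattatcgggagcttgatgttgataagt
NEUROD1 (chr2:181680518-181680767, minus strand): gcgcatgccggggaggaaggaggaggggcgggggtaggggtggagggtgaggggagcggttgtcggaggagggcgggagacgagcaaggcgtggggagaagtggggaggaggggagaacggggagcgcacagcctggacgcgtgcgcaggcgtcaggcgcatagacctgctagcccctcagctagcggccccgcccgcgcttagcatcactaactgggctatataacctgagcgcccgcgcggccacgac
NHLH1 (chr1:160366821-160367070, plus strand): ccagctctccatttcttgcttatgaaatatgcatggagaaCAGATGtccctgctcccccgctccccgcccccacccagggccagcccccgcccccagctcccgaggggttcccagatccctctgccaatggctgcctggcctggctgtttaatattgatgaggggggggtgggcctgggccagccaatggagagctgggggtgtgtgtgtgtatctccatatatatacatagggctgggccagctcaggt
NHLH1 held 1 CAGATG, at position -210 from the start, and the other 3 windows held neither motif. Of 27305 promoters of this length, 12.2% held CAGATG and 13.8% held CAGCTG. One or the other stood in 24.2% of them. The share was 25.6% in 1857 promoters of genes that rose beyond 2-fold, 20.6% in 1927 of genes that fell beyond 2-fold and 20.5% in 13497 of genes tested. These shares are descriptions, and absence from this window says nothing about binding elsewhere.

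Libraries of KO held 27150278 to 34629576 counts at day 0 and 38492158 to 45682266 at day 3, so day 3 was the deeper group (exact two-sided permutation p 0.0286, the smallest that 4 against 4 can give). The 5 small structural RNAs measured (RN7SL1, RN7SL2, RN7SK, RPPH1 and RMRP) took 4.02%, 5.93%, 5.56% and 6.45% of the counts at day 0. At day 3 they took 4.92% and 3.54% in replicates 1 and 2 but 14.9% and 18.8% in replicates 3 and 4. The mean share was 10.5% at day 3 and 5.49% at day 0, a difference not detected by an exact two-sided permutation test (p 0.4), and the day 3 replicates stood apart as these pairs. In WT at day 3 the shares of replicates 1 to 4 were 10.4%, 8.99%, 19.6% and 18.1%, split by the same numbers. In HET at day 3 they were 13.7%, 5.11%, 11.2% and 16.1%. Whether same-numbered libraries share a source across lines was not tested. Log2 CPM correlated across genes at 0.9886 in replicates 1 and 2, at 0.9893 in replicates 3 and 4 and at 0.9733 to 0.9866 between the pairs, where genes are not independent replicates. Mitochondrial genes took 1.48% of counts at day 0 and 0.702% at day 3 (exact two-sided permutation p 0.0571). Levels below are CPM, counts scaled to a common library total, on TMM-scaled library sizes, in the order of replicates 1 to 4, which have no order in time.

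RAI1 itself (ENSG00000108557, chromosome 17, 17681473 to 17811453, GRCh38) stood at 23.6, 46.2, 48.8 and 29.8 CPM at day 0 and at 76.4, 107, 65.6 and 37.8 CPM at day 3 in KO. The groups overlapped through day 3 replicate 4. The rise was 0.93 log2 (SE 0.29, edgeR quasi-likelihood adjusted p 0.0128). It was 0.48 log2 with adjusted p 0.191 without day 3 replicates 1 and 2, and with adjusted p 0.455 in limma on TPM. RAI1 counts did not fall in the libraries labelled KO: day 0 means were 37.1 ± 12.3 CPM in KO and 33.5 ± 8.26 in WT (SD, n = 4 each; exact two-sided permutation p 0.657). Gene-level counts therefore do not check the genotype labels, and a change that leaves the transcript in place would not be seen in them. All directions follow the labels. Of the 4 genes in the list of RAI1 and its reported partners, 2 rose, 1 fell and 1 did not pass. Among all genes tested 29.7% rose and 29.6% fell. The chromatin reader PHF14 stood at 82.4 ± 3.33 CPM at day 0 and 103 ± 11.3 at day 3 (0.30 log2, adjusted p 0.0408, lost in 12 of 19 alternatives and negative in TPM). The nucleosome-binding regulator TCF20 stood at 164 ± 13.2 and 155 ± 33.1 CPM and did not pass.

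NEUROG2, the driver, rose the most of all named genes. It (ENSG00000178403, chromosome 4, 112513516 to 112516172) stood at 2.24, 2.08, 1.61 and 1.55 CPM at day 0 and at 8662, 7863, 8238 and 11000 CPM at day 3, a change of 12.20 log2 (SE 0.31, edgeR adjusted p 2.02e-11). Every day 3 library lay above every day 0 library. The counts cannot separate the transgene from the native gene, and 1 annotated gene overlaps it. The driver was lower in KO than in the other lines: day 3 means were 8941 ± 1411 CPM in KO, 16080 ± 1871 in HET and 22320 ± 2661 in WT (SD, n = 4 each). No KO library reached the lowest HET or WT library at day 3. Day 0 showed the same order, with 1.87 ± 0.342 CPM in KO, 7.85 ± 3.04 in HET and 21.4 ± 10.2 in WT. Each of these 4 differences between lines had an exact two-sided permutation p of 0.0286 (adjusted over 15 such tests, 0.0536). A deposited row named tdTomato, given in CPM of the library total without TMM factors, followed at day 0. It stood at 44.4 ± 7.51 CPM in KO, 85.1 ± 14.6 in HET and 157 ± 16.8 in WT. In KO it fell to 14.7 ± 5.29 at day 3 (exact two-sided permutation p 0.0286, adjusted 0.0536). At day 3 tdTomato stood at 22.0 ± 10.5 CPM in WT and 31.3 ± 19.0 in HET, both overlapping KO (exact two-sided permutation p 0.286 and 0.2). NEUROG2 on both days and tdTomato at day 0 move with the line in every comparison with WT or HET below. Their part in those results was not tested.

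**Figure D1:**
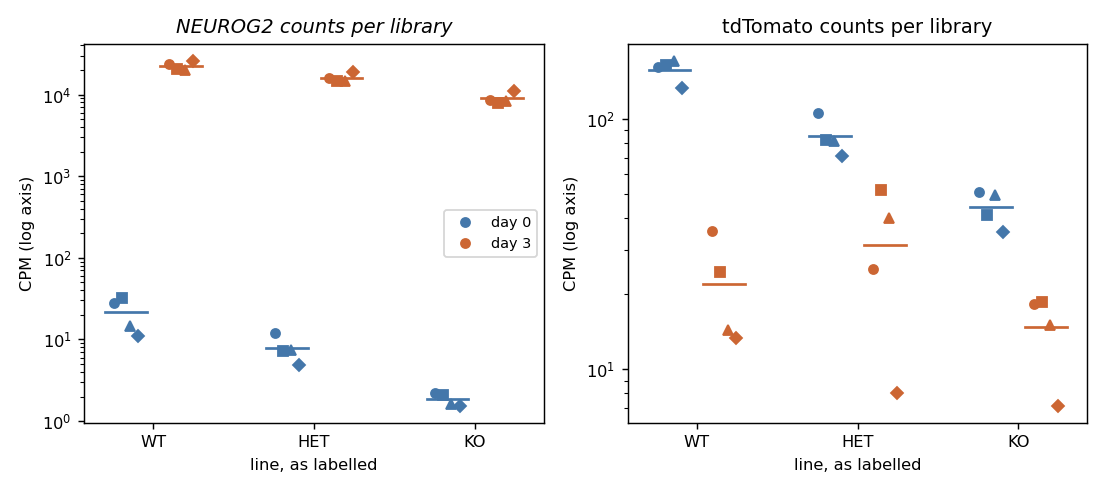
NEUROG2 (left) and tdTomato (right) CPM on log axes in each library of the 3 lines at day 0 (blue) and day 3 (orange), with lines at the mean of 4. The tdTomato values are without TMM factors. KO is the lowest line for NEUROG2 on both days, at means of 1.87 and 8941 CPM.

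Induction moved most of the measured transcriptome. Of 22059 genes tested in KO, 13088 (59.3%) passed at an edgeR adjusted p under 0.05, 6558 higher at day 3 (29.7%) and 6530 lower (29.6%). Counts of list members below are to be read against these shares. A test against a change of 1 log2 called 3124 genes higher (14.2%) and 2779 lower (12.6%). The 4 day 3 and 4 day 0 libraries did not overlap at 11649 genes (52.8%). The median change of all genes was 0.03 log2. It was -0.10 log2 under library size alone and -0.18 log2 in TPM, where 8508 genes passed and 28.5% of them were higher, against 50.1% of the edgeR calls. Among genes named below, the TPM fit lost the calls of BMP3, CNTN4, GAD2, LIN28B, MAP2, ONECUT1, PAX6, SCN2A, SOX4, SOX11, SPRED2, SS18L1 and DPYSL3. Protein-coding genes spanning at least 300 kb were higher in 40.9% and lower in 34.1% of 760, and those spanning 10 to 50 kb higher in 28.9% and lower in 37% of 6429. In bulk RNA, fewer cells of a type and less RNA per cell cannot be told apart, and this holds for every gene below.

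The proneural cascade came on almost as a block. Of 27 tested genes in the list of proneural factors and NGN2 targets, 26 rose, none fell and DLL1, a Notch ligand, did not pass. Their median was 7.04 log2 against 0.03 for all genes. The list includes NEUROG2, the doxycycline-controlled driver, whose rise the design fixed. NEUROD1, the neurogenic factor directly downstream, stood at 0.135, 0, 0 and 0.0304 CPM at day 0 and at 115, 69.1, 106 and 73.0 CPM at day 3 (10.84 log2, SE 0.59, edgeR adjusted p 4.34e-09). NHLH1, a helix-loop-helix factor of newborn neurons, stood at 0.674, 0.504, 1.12 and 0.425 CPM and then at 764, 640, 796 and 900 CPM (10.13 log2, SE 0.54). Neither gene had overlapping groups. NEUROD4 reached 423 ± 56.0 CPM (SD, n = 4), EBF1 294 ± 59.0, EBF2 289 ± 110 and EBF3 352 ± 57.5, all from day 0 means under 2 CPM. The cortical factors NEUROD2 and BHLHE22 reached 9.81 and 14.3 CPM, and NEUROD6, a later member of the family, was not tested. ONECUT2 rose to 1086, 930, 678 and 390 CPM from 6.50 to 18.7, while its relative ONECUT1 rose by only 0.81 log2, a call lost in TPM and without replicates 1 and 2. MYT1L, a repressor of non-neuronal genes, was still at 6.79 ± 2.75 CPM at day 3 and reached 74.1 by day 7.

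**Figure D2:**
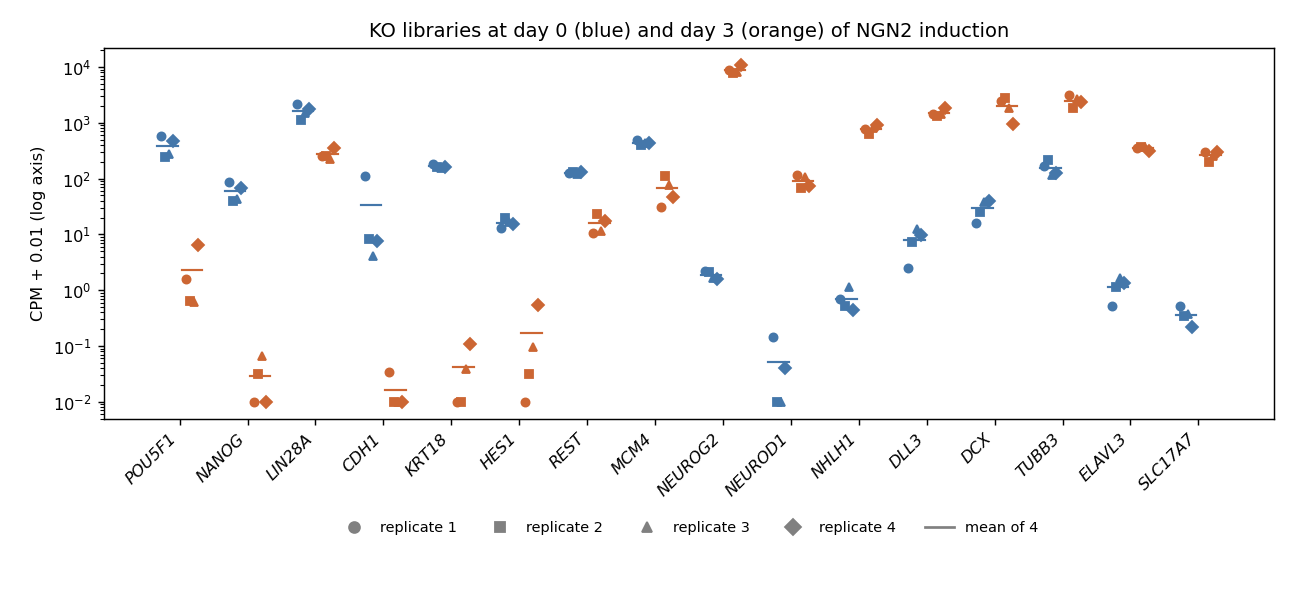
CPM of 16 genes in each KO library at day 0 (blue) and day 3 (orange), with 0.01 added so that zeros can be drawn on the log axis and a line at the mean of 4. Stem cell, epithelial and replication genes fall and neuronal genes rise, with no overlap between the days for these genes.

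UNCX, a homeodomain factor, was nearly absent before induction. It had 1 count in the 4 day 0 libraries together and 4780 at day 3 (29.9, 26.8, 33.1 and 27.5 CPM), a count ratio of 3790 with a 95% exact interval of 679.9 to 149700 for counting error only. NRN1, a membrane-anchored neurite growth factor, had 3 counts at day 0 and 7260 at day 3, a ratio of 1919 (656 to 9307). The remaining large rises were GGT5, a glutamyl transferase (0.0377 to 51.6 CPM), ARPP21, a neuronal cAMP-regulated RNA-binding phosphoprotein (0.0318 to 39.5), ATP2B3, a neuronal calcium pump (0.191 to 213), and ARSF, a sulfatase (0.032 to 33.7). None of these genes had overlapping groups.

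Notch genes moved in both directions, near the shares of all genes. Of 22 tested, 6 rose, 8 fell and 8 did not pass, with a median of -0.07 log2. Among ligands, DLL3, which acts inside the sending cell, rose from 2.54, 7.16, 12.3 and 9.75 CPM to 1423, 1335, 1452 and 1840 CPM (7.56 log2, edgeR adjusted p 1.26e-08). DLL4 rose from 0.521 ± 0.337 to 79.4 ± 7.36 CPM and JAG2 from 7.14 ± 0.797 to 39.1 ± 6.43 (SD, n = 4). DLL1 stood at 8.93, 33.6, 38.3 and 20.7 CPM and then at 15.8, 46.8, 28.5 and 68.6, overlapping groups that did not pass. JAG1 fell by 1.6 log2, a call lost without day 3 replicates 1 and 2. Of the receptors, NOTCH2 fell from 297 ± 52.4 to 32.8 ± 14.0 CPM and NOTCH3 from 325 ± 72.9 to 5.98 ± 2.65, whereas NOTCH1 stood at 196 ± 29.4 and 181 ± 71.2 and did not pass. RBPJ, the DNA-binding partner of the cleaved receptor, did not pass either, at 158 ± 24.6 and 162 ± 32.3 CPM. The glycosyltransferase MFNG, which tunes receptor response to ligand, rose by 7.64 log2. The HES genes diverged. HES1 fell from 12.9, 19.6, 16.4 and 15.5 CPM to 0, 0.0217, 0.0839 and 0.543 (-6.63 log2, SE 0.78). HES4 rose by 4.23 log2 and HES6, a HES1 antagonist, by 5.22 log2.

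Cytoskeletal genes of neurons rose in 26 of 30 cases, 2 fell and 2 did not pass, with a median of 2.80 log2. TUBB3, the neuronal beta-tubulin, stood at 167, 217, 117 and 125 CPM and then at 3125, 1846, 2668 and 2336 (3.98 log2, SE 0.25, edgeR adjusted p 1.57e-08). DCX, the microtubule-binding doublecortin of migrating neurons, went from 15.9, 25.4, 38.4 and 38.9 CPM to 2459, 2799, 1843 and 944. Its lowest day 3 library, replicate 4, was still 944 CPM. STMN2 rose by 6.83 log2, PRPH, a peripheral intermediate filament, by 7.39 and NEFL, the light neurofilament, by 5.0. MAP2, the dendritic microtubule protein, overlapped between the days (90.8, 404, 339 and 213 CPM, then 578, 846, 599 and 279), and its rise of 1.11 log2 was lost without day 0 replicate 4, without day 3 replicate 2, without day 3 replicates 1 and 2 together and in TPM. UCHL1, a neuronal ubiquitin hydrolase, fell from 245 ± 33.3 to 94.3 ± 13.6 CPM, and DPYSL3 fell by 0.58 log2, a call lost in 10 of 19 alternatives. TUBB2A and DPYSL5 did not pass. By day 7 UCHL1 stood at 623 CPM and DPYSL3 at 2104, both above their day 0 means.

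RNA-binding proteins that set neuronal splicing rose in 14 of 20 cases, with 3 lower and a median of 2.25 log2. ELAVL3, a Hu protein that stabilises neuronal messages, went from 0.512, 1.11, 1.61 and 1.34 CPM to 356, 374, 374 and 310 (8.26 log2, SE 0.29), groups far apart. SRRM4, which includes neural microexons, rose from 8.12 ± 2.69 to 270 ± 67.6 CPM, and RBFOX3, the NeuN antigen, from 2.83 ± 1.74 to 38.4 ± 5.98. PTBP1, the repressor of neuronal exons, fell from 514 ± 67.7 to 183 ± 32.5 CPM (-1.51 log2, edgeR adjusted p 1.53e-06), and its neuronal relative PTBP2 stood at 99.2 ± 12.8 and 106 ± 22.3 and did not pass. The epithelial splicing factors ESRP1 and ESRP2 were the other 2 that fell.

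**Figure D3:**
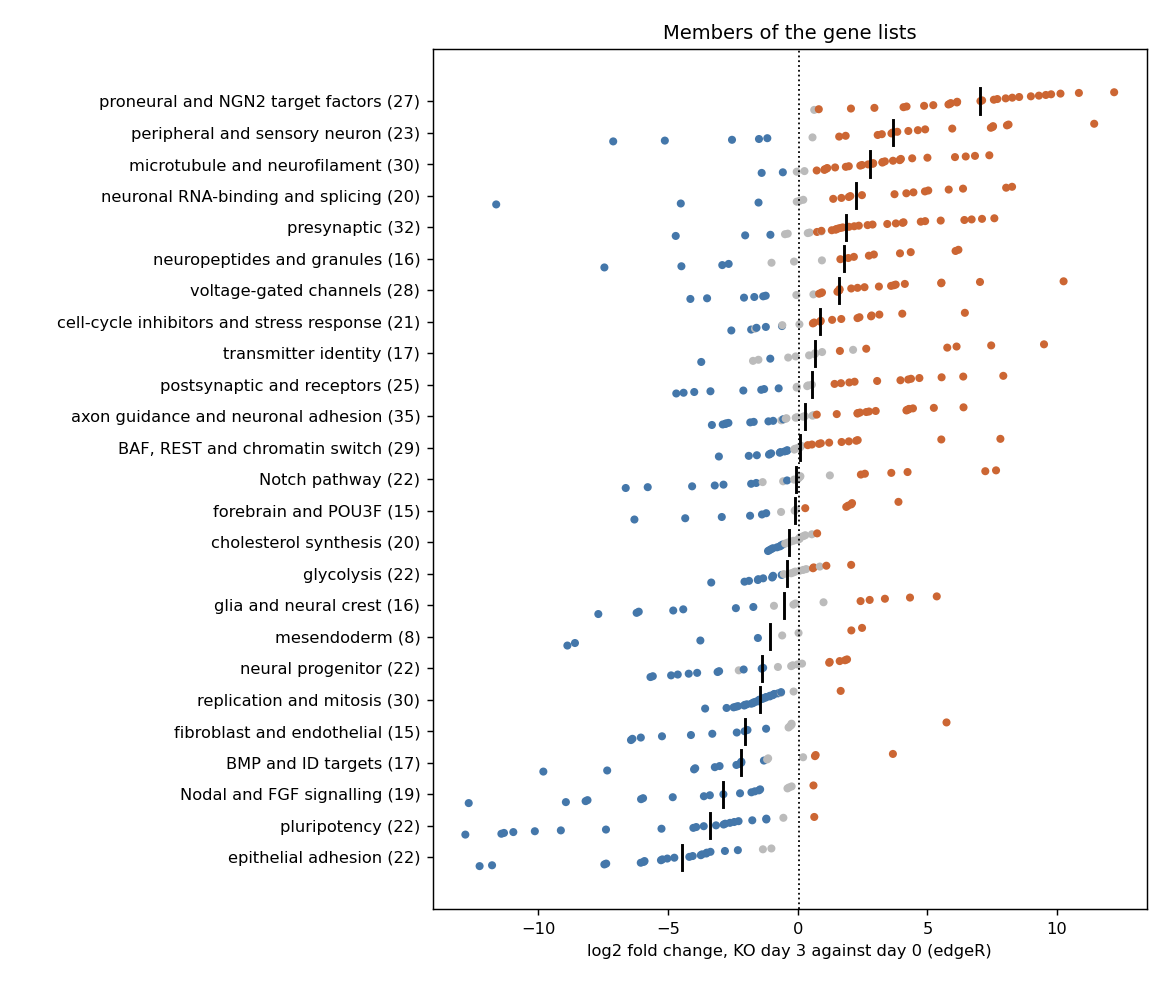
Log2 fold change of each tested list member at day 3 against day 0 in KO: orange called higher, blue called lower, grey not passing, black bar the list median, dotted line the median of all genes (0.03), number of tested members in brackets. List medians run from -4.47 (epithelial adhesion) to 7.04 (proneural factors and NGN2 targets, NEUROG2 included).

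Synaptic genes rose more often than they fell. Of 32 presynaptic genes 24 rose, 3 fell and 5 did not pass (median 1.85 log2). CPLX1, a complexin that clamps vesicle fusion, rose from 0.510 ± 0.116 to 99.0 ± 19.3 CPM, SYP, the vesicle protein synaptophysin, from 5.78 ± 2.44 to 267 ± 68.6 and SNAP25, a fusion SNARE, from 1.37 ± 0.389 to 41.8 ± 3.13 (SD, n = 4). The adhesion receptor NRXN3 fell by 4.71 log2 and the vesicle proteins SV2A and RAB3B fell by 1.06 and 2.03. The synuclein SNCB and the synapsins SYN2 and SYN3 did not pass. Of 25 postsynaptic and receptor genes 12 rose and 8 fell (median 0.54 log2), 48% and 32%, against 29.7% and 29.6% of all genes. CAMK2B, a calcium-dependent kinase of the synapse, went from 0.377 ± 0.136 to 93.7 ± 11.8 CPM, whereas the NMDA receptor subunit GRIN2B went from 18.9, 20.7, 18.3 and 19.5 CPM to 0.215, 1.04, 0.867 and 0.914 (-4.69 log2, SE 0.45). GRIN2A, GRIA1, GRIA4 and NLGN3 fell with it, while GRIN1, GRIN2D and GRIA2 rose.

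Voltage-gated channels rose in 20 of 28 cases and fell in 6 (median 1.6 log2). In limma on TPM 10 were called higher and 2 lower. CACNG2, an auxiliary subunit that carries AMPA receptors, had a single count at day 0 and stood at 14.5, 10.1, 15.3 and 14.6 CPM at day 3. CACNA1B, the presynaptic N-type channel, rose from 8.41 ± 1.86 to 117 ± 33.5. KCND2 fell by 4.14 log2 and SCN2A, a main sodium channel of mature neurons, by 2.07. Transmitter genes had 6 rises and 2 falls, GAD2 and TPH1, among 17 tested. The falls numbered 1 without day 0 replicate 2, 3 or 4 or day 3 replicate 1 or 3, and 0 with the 8 libraries alone. The vesicular glutamate transporter SLC17A7 led, from 0.512, 0.336, 0.362 and 0.213 CPM to 303, 198, 253 and 302 (9.49 log2, SE 0.26), with no overlap. SLC17A6, its relative, reached 9.45 ± 4.52 CPM and CHAT, which makes acetylcholine, 14.2 ± 3.58. GAD1, which makes GABA, did not pass at 1.2 and 1.91 CPM, and GAD2 fell. Of 16 neuropeptide and granule genes 9 rose, led by SCG2 (6.19 log2), and 4 fell, among them VGF (-2.91 log2).

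Genes of peripheral and sensory neurons rose in 17 of 23 tested cases, fell in 5 and left GATA3 as the 1 that did not pass (median 3.66 log2); 5 more were not tested. POU4F1, a sensory neuron factor, stood at 0.459, 0.302, 0.329 and 0.425 CPM and then at 121, 63.7, 72.0 and 28.5 (7.51 log2, SE 0.53, edgeR adjusted p 5.14e-08), with every day 3 library above day 0. TLX3 rose by 8.07 log2, ISL1 by 7.53 and NGFR, the low-affinity neurotrophin receptor, by 3.66. Other neurotrophin and GDNF receptors went apart: NTRK3 rose by 4.26 log2, NTRK2 fell by 7.12 and RET fell by 1.5. Summed over the 28 genes, the day 0 libraries held 95.7 to 133 CPM and the day 3 libraries 802 to 1327, with replicate 1 highest. Forebrain genes had 6 higher and 6 lower of 15 tested (median -0.12 log2), 40% each, against 29.7% and 29.6% of all genes. POU3F2 rose from 62.5 ± 34.1 to 269 ± 61.1 CPM, EOMES and BCL11B fell by 6.30 and 4.34 log2, and 6 more, TBR1 among them, were not tested.

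Axon guidance and adhesion genes had 15 rises and 10 falls among 35 (median 0.28 log2). The share that rose was 42.9% against 29.7% of all genes, and the share that fell 28.6% against 29.6%. L1CAM rose from 38.4 ± 13.2 to 754 ± 124 CPM and CNTN2, a contactin of growing axons, from 1.53 ± 0.400 to 131 ± 67.6. CNTNAP2, a neurexin family adhesion protein, fell from 145, 790, 320 and 212 CPM to 53.9, 39.8, 33.5 and 22.4 (-3.31 log2, SE 0.47) and stood at 417 CPM at day 7. The repellents SLIT2 and SEMA3A fell, while the receptors ROBO1, ROBO2 and DCC rose.

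Pluripotency was lost in nearly the whole list: 20 of 22 tested genes fell, 1 rose and DPPA2 did not pass (median -3.39 log2). POU5F1, a core factor of the stem cell state, stood at 579, 246, 270 and 468 CPM at day 0 and at 1.6, 0.629, 0.615 and 6.47 CPM at day 3 (-7.40 log2, SE 0.73, edgeR adjusted p 1.25e-06). NANOG, its partner, went from 87.0, 39.8, 43.0 and 67.4 CPM to 3 counts in 4 libraries, a ratio of 3335 with a 95% exact counting interval of 1141 to 16180. No library overlapped for either. The day 3 library with the most POU5F1, replicate 4, also had the least DCX. The same library had the most NEUROG2 and NHLH1 (11000 and 900 CPM) and no count of NANOG. SOX2 fell less, from 185 ± 14.1 to 25.8 ± 11.9 CPM. LIN28A, a repressor of let-7 processing, stayed at 274 ± 57.1 CPM from 1657 ± 451, and its paralog LIN28B rose from 246 ± 16.7 to 387 ± 70.4 CPM, a call lost in TPM. The stem cell transcript ESRG fell to 3 counts in all (count ratio 8787, 95% exact interval 3006 to 42610), and the zinc finger gene ZSCAN10 and VRTN fell, with changes of -11.33 and -10.97 log2. Summed pluripotency CPM ran from 4228 to 7996 at day 0 and from 1228 to 1545 at day 3.

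Signals that hold the stem cell state fell with it. Of 19 Nodal and FGF genes 15 fell and 1, the ERK inhibitor SPRED2, rose (median -2.87 log2). TDGF1, the Nodal co-receptor, went from 392, 69.9, 85.3 and 178 CPM to 0.0718, 0, 0 and 0.0247, FGF2 fell by 3.39 log2 and the ERK phosphatase DUSP6 by 3.62. NODAL itself stood at 1.40 ± 1.23 and 1.08 ± 0.156 CPM and did not pass. Of 17 BMP and ID genes 11 fell and 3 rose (median -2.18 log2). ID3, an inhibitor of helix-loop-helix factors, fell from 90.3 ± 25.9 to 0.566 ± 0.608 CPM and ID1 by 2.24 log2, while CHRD, a secreted BMP antagonist, rose from 2.58 ± 0.593 to 33.3 ± 7.27. CXCL5, a chemokine, had 8.33, 34.5, 14.2 and 23.6 CPM at day 0 and no count at day 3, at least 273-fold lower against a floor of 3 counts per library. LIX1 went from 23.8, 70.8, 103 and 55.4 CPM to 5 counts in all (-10.88 log2, SE 0.67).

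Epithelial adhesion had 20 falls and no rise among 22 tested (median -4.47 log2); CLDN4 and CLDN10 did not pass and 4 more were not tested. KRT18, a simple-epithelium keratin, went from 185, 162, 152 and 163 CPM to 0, 0, 0.028 and 0.0988 (-12.27 log2, SE 0.43, edgeR adjusted p 1.02e-10) and its partner KRT8 from 210 ± 14.0 to 3.19 ± 1.69 CPM. EPCAM fell by 7.46 log2. E-cadherin, CDH1, stood at 113, 8.13, 4.01 and 7.71 CPM at day 0 and had 1 count at day 3. Day 0 replicate 1 therefore carried most of the CDH1 signal, and ESRP1 showed the same form at 107, 4.47, 1.68 and 6.23 CPM. Without that library CDH1 fell by 9.46 log2 and ESRP1 by 8.78, against 11.79 and 11.63 with it. CDH1 was also low in WT at day 0, at 2.31 ± 0.371 CPM, so this marker of stem cell epithelium was scarce in the other 3 day 0 libraries of KO, all of which held POU5F1. N-cadherin, CDH2, stood at 328 ± 108 and 222 ± 57.1 CPM and did not pass.

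Neural progenitor genes fell more than they rose, 11 against 5 of 22 (median -1.36 log2). The rises numbered 3 without day 3 replicates 3 and 4, and 0 in limma on TPM. SOX1, SOX3 and VIM fell by 4.21, 3.88 and 2.09 log2. SOX11 and SOX4, factors of young neurons, rose by 1.62 and 1.23, and PAX6 rose from 1.18 ± 0.412 to 4.45 ± 1.17 CPM, a call lost without day 3 replicates 3 and 4. NES, the progenitor filament, stood at 827 ± 352 and 732 ± 166 CPM and did not pass.

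**Figure D4:**
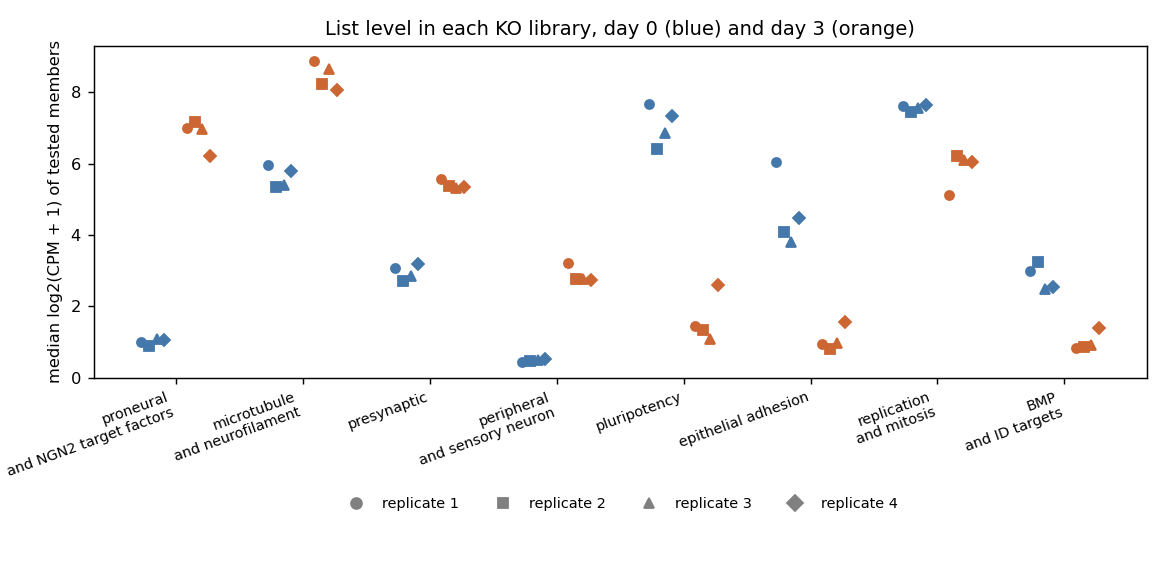
Median log2(CPM + 1) of the tested members of 8 lists in each KO library at day 0 (blue) and day 3 (orange). The days do not overlap in any of these lists. Replicate 4 is the highest day 3 library for pluripotency (2.58), and replicate 1 the lowest for replication (5.12).

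Replication and mitosis genes fell in 27 of 30 cases, with 1 rise (median -1.48 log2). CDC6, which loads the replicative helicase, went from 180, 150, 154 and 162 CPM to 6.05, 20.4, 16.9 and 11.8 (-3.57 log2, SE 0.29, edgeR adjusted p 1.85e-07), and the helicase subunit MCM4 from 440 ± 40.3 to 66.8 ± 35.5 CPM. The proliferation marker MKI67 went from 472, 362, 529 and 490 CPM to 104, 397, 249 and 259, overlapping through replicate 2 with a call lost without day 3 replicates 3 and 4, and TOP2A fell by 0.64 log2, a call lost in 9 of 19 alternatives. CDK1, at 79.4 ± 14.2 and 71.7 ± 33.4 CPM, and CCND2 did not pass. E2F1, the activator of S-phase genes, rose from 35.7 ± 4.73 to 114 ± 12.6 CPM. Summed CPM of the 30 genes was 1568 in day 3 replicate 1 and 3025 to 3863 in the others, below the 6178 to 7281 of day 0. MKI67 fell to 3.88 CPM by day 7. Of 21 cell-cycle inhibitors and stress-response genes 13 rose and 5 fell (median 0.87 log2). CDKN1C rose from 12.2 ± 3.19 to 86.8 ± 28.1 CPM.

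Chromatin switch genes divided evenly, 11 higher and 11 lower of 29 (median 0.07 log2). These were 37.9% each, against 29.7% and 29.6% of all genes. ACTL6B, the neuronal BAF subunit, rose from 0.122 ± 0.0261 to 28.7 ± 5.49 CPM (7.81 log2, SE 0.24), while its progenitor counterpart ACTL6A fell by 0.67 log2 and the progenitor subunit PHF10 by 1.89. DPF3 and SS18L1, which also enter the neuronal complex, rose by 5.53 and 1.21. REST, the repressor of neuronal genes, fell from 126, 133, 122 and 129 CPM to 10.7, 23.1, 11.5 and 17.7 (-3.04 log2, SE 0.22, edgeR adjusted p 5.73e-08), whereas its co-repressor RCOR2 rose by 2.05 log2. EZH2 and SMARCA4 did not pass.

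Glycolysis had 10 falls and 4 rises of 22 (median -0.40 log2), led by the glucose transporter SLC2A1, from 377 ± 91.3 to 37.9 ± 12 CPM. GAPDH fell to 734, 900, 1631 and 1697 CPM from 2221 to 2718. Cholesterol synthesis had 8 falls, 1 rise and 11 genes that did not pass of 20 (median -0.34 log2), with DHCR7 lowest at -1.15 log2; 3 rose without day 3 replicate 2. The largest gains of CPM after NEUROG2 were MAP1B, a microtubule protein of axons (1167 to 7771), TUBA1A (558 to 5429), TUBB3, TALAM1 (849 to 2949) and IGFBPL1 (154 to 2227). TALAM1 is antisense to MALAT1, and without stated use of strand their reads cannot be told apart. The largest losses were the actin crosslinker FLNA (2213 to 339), ACTB (5247 to 3644), the stem cell sialomucin PODXL (1443 to 16.2), the chaperone HSPA8 (2293 to 888), SNHG14 (2196 to 799), which overlaps 99 annotated genes, and LIN28A. The ACTB call was lost without a filter and without day 3 replicates 1 and 2.

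Markers of other cells moved as follows. Of 8 tested mesendoderm genes 2 rose and 4 fell, the summed list went from 101 to 186 CPM at day 0 to 9.19 to 13.8 at day 3, and TBXT, SOX17, GSC, FOXA2, HNF4A and AFP had no count at day 3. Of these 6, AFP alone was tested, and the others were scarce at day 0 too, with means of at most 0.743 CPM (FOXA2). The 2 rises became 1 without day 0 replicate 3 or 4 or day 3 replicate 4. Most of the day 0 sum was KDR, a growth factor receptor, at 81.8, 166, 83.3 and 104 CPM, then 0.335, 0.304, 0.14 and 0.123. Of 15 fibroblast and endothelial genes 10 fell and 1, the claudin CLDN5, rose, with sums of 730 to 2090 and 171 to 401 CPM. COL1A1 was uneven, at 86.2, 1049, 282 and 90.9 CPM and then 31.6, 116, 46.0 and 176, and its call was lost in 7 of 19 alternatives, among them leaving out day 0 replicate 2 or day 3 replicate 1, 2 or 3. Of 16 glia and neural crest genes 5 rose and 7 fell, 31.25% and 43.75%, against 29.7% and 29.6% of all genes. Their sums were 222 to 240.5 CPM at day 0 and 345.5 to 412 at day 3. The rise of the sum was mostly SLC1A2, a glutamate transporter (5.54 ± 1.25 to 230 ± 59.4 CPM). The part of these other cells in the results above was not tested.

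HOX genes were highest in replicate 1 on both days. Of 18 tested 2 fell, none rose and 16 did not pass (median -1.01 log2). Summed HOX CPM was 166 in day 0 replicate 1 and 4.27 to 11.3 in the other day 0 libraries, and 74.6 in day 3 replicate 1 against 7.98 to 19.1. Without day 0 replicate 1, 3 HOX genes were called higher and none lower. Leaving out day 3 replicate 1 gave 4 lower, leaving out day 3 replicate 2 none, and leaving out day 3 replicate 3 or 4 gave 1.

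The same 3 days in WT, with no library in common, were used to ask where induction in KO departed. In WT 13351 of 22268 genes passed (60%). Among the 21128 genes tested in both lines 9650 were called in both, 76.3% of the KO calls and 75.2% of the WT calls, and 98.3% of them had the same direction. Changes correlated across genes at r = 0.873, where genes are not independent. The test of the difference of the changes called 2118 of 24764 genes (8.55%), 1329 with a more positive change in KO (5.37%) and 789 with a more negative one (3.19%). This count was 1320 without KO day 3 replicate 1, 4110 without day 3 replicates 3 and 4, 833 without replicates 1 and 2, and 321 in limma on TPM. With the replicate number as a block it was 2546.

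**Figure D5:**
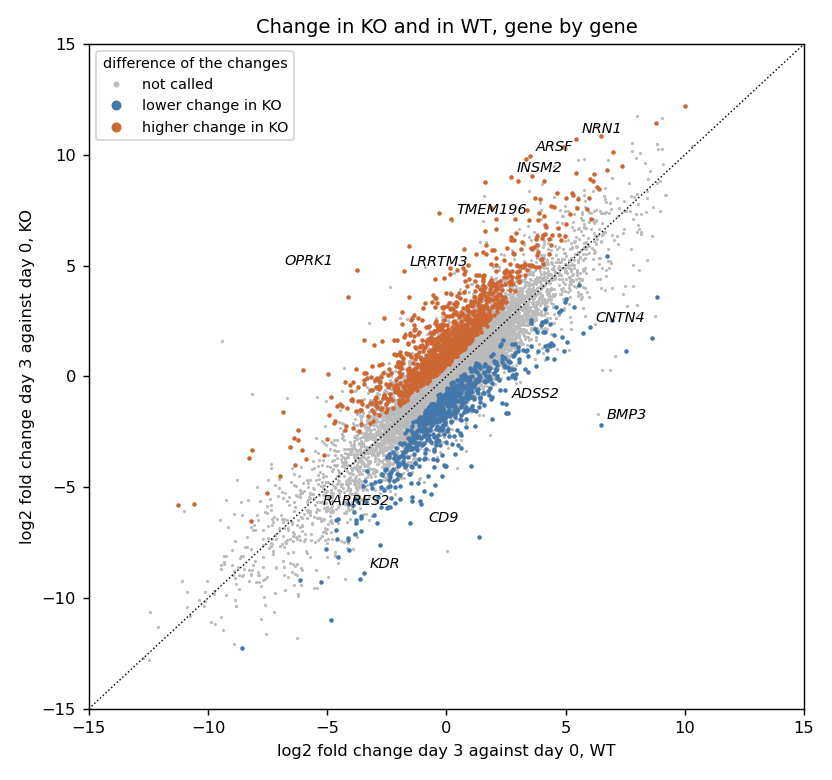
Log2 fold change at day 3 against day 0 in WT (x axis) and KO (y axis) for each gene tested in both, with the difference of the changes called higher in KO (orange), lower in KO (blue) or not called (grey), and the dotted line of equal change. The 12 labelled genes have the largest differences by the naming rule.

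Many members of the neuronal lists differed between the lines. The change was more positive in KO for 18 of 27 proneural factors, 20 of 30 cytoskeletal genes, 15 of 32 presynaptic genes, 14 of 35 guidance genes, 11 of 28 channels and 10 of 20 RNA-binding genes. It was more negative for 1, 0, 0, 1, 0 and 0 of them. The 27 proneural list members include NEUROG2, the driver, whose change was 2.19 log2 more positive in KO (edgeR adjusted p 0.000499). Its level was lower in KO than in WT at day 3 (8941 and 22320 CPM) and at day 0 (1.87 and 21.4 CPM). A more positive change in KO therefore does not by itself show a higher day 3 level. The median change was 7.04 log2 in KO, 5.71 in HET and 3.85 in WT for proneural factors, and 2.80, 2.01 and 1.22 for the cytoskeleton. DCX reached 2011 ± 814 CPM in KO and 261 ± 80.6 in WT at day 3 from 29.6 and 29.1, a difference of changes of 2.92 log2 (edgeR adjusted p 0.00093). NHLH1 reached 775 in KO and 167 in WT (3.14 log2, adjusted p 0.000801), and EBF3 352 and 59.2 (3.31 log2, adjusted p 4.59e-05). DLL1 went the other way, reaching 39.9 CPM in KO and 167 in WT (-2.38 log2, adjusted p 0.0379). Replication genes gave 9 more negative differences and none positive of 30, among them MCM4, at 66.8 CPM in KO and 199 in WT at day 3. REST (15.7 and 58.5 CPM at day 3; -2.05 log2, adjusted p 5.57e-05), HES1 (0.162 and 5.20) and NOTCH2 (32.8 and 119) also fell further in KO. No pluripotency gene of 22 passed in this test, which does not show that the lines were alike.

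OPRK1, LRRTM3, BMP3 and ADSS2 moved in opposite directions in the lines, each passing its test in both. OPRK1, the kappa opioid receptor, rose in KO from 0.836, 1.04, 1.35 and 1.94 CPM to 27.5, 39.1, 30.1 and 47.8, and in WT stood at 0.0736, 0.112, 0.0239 and 0.0526 at day 3 (difference 8.56 log2, SE 0.82, edgeR adjusted p 4.92e-08). LRRTM3, a postsynaptic organiser, and TMEM196 rose in KO to 24 to 56.7 and 17.6 to 41.9 CPM, while the WT means at day 3 were 0.157 and 0.107. BMP3, a secreted BMP family ligand, rose in WT to 398, 159, 196 and 97.3 CPM (difference -8.65 log2, SE 1.03, adjusted p 2.1e-06). In KO it was low on both days, at 0.4045, 1.14, 3.16 and 2.67 CPM and then at 0.574, 0.304, 0.28 and 0.469. These KO groups overlapped, and the call of the fall was lost in TPM. ADSS2, which makes adenylosuccinate for AMP, fell in KO from 99.5, 86.2, 74.6 and 86.2 CPM to 33.7, 36.8, 40.8 and 37.4 and rose in WT to 248, 608, 485 and 412 (difference -3.75 log2, SE 0.25, adjusted p 1.47e-11). No day 3 library of 1 line reached the other for these 5 genes. CNTN4 rose in both, to 8.55 ± 3.14 CPM in KO and 78.9 ± 18.1 in WT. The difference for KDR, -5.41 log2 (adjusted p 0.0164), rested on WT day 3 replicate 1, at 19.7 CPM against 0, 0.0957 and 0.0526 in the others, and was 1.17 with adjusted p 0.628 without it.

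Against HET, 61 of 24764 genes differed in their change (0.246%), a count of 34 to 90 when 1 library was left out and of 1010 without KO day 3 replicates 3 and 4. With the replicate number as a block the count was 80. This test shares the KO libraries with that against WT. In HET 10488 of 21715 genes passed between the days (48.3%). OPRK1, TMEM196, LRRTM3 and CD9, a tetraspanin, differed from HET as well (adjusted p 4.73e-07, 4.45e-08, 4.7e-08 and 0.0338). ADSS2 did not, with changes of -1.24 log2 in KO and -1.40 in HET. BMP3 changed by -2.18 log2 in KO and -4.85 in HET, and CNTN4 by 2.21 and 2.13, and neither difference passed. KDR, RARRES2, ARSF, INSM2 and NRN1 did not pass against HET either (edgeR adjusted p at least 0.275). This does not show that the lines were alike.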

How the data were processed

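Total RNA depleted of ribosomal RNA was sequenced as 151 bp paired reads, per the labels' protocols. The authors deposited expected counts per gene, whole numbers throughout, and TPM for 36 libraries in 9 groups of 4; a deposited FPKM table was not used (lowest correlation with TPM over libraries 1.000000). The submitters' processing notes name STAR 2.7.8a, RSEM 1.3.3, cutadapt 4.8, FastQC 0.11.8, MultiQC 1.20 and GRCh38. The annotation release and strand setting are not given in the sources used here. Positions came from GENCODE 29, which matched 58274 of 62710 gene identifiers (92.9%), and 4 reporter rows (at most 0.00514% of counts in these 8 libraries) were left out.

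Counts were tested with edgeR 4.0.16 in R 4.3.3 (filterByExpr for low counts, TMM factors, the quasi-likelihood test and a Benjamini-Hochberg threshold of 0.05) over the 12 KO libraries of 3 days, and against a change of 1 log2 with glmTreat. Differences of changes between lines were interaction terms fitted over all 36 libraries. Alternatives were other scaling (DESeq2 1.42.0 size factors, library size alone, small structural RNAs left out), no filter, other sets of libraries, DESeq2's test, limma 3.58.1 on log2(TPM + 1), the replicate number as a block and each library left out. Fits without KO day 3 replicates 3 and 4, or 1 and 2, were added after seeing the data. Single values were compared by exact two-sided permutation over 70 splits (scipy 1.17.1; smallest p 0.0286). Plots used matplotlib 3.10.9. Counting intervals are exact at 95%, the floor is 3 counts, and both cover counting error only. The statistics were tested on simulated data.

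The members and gene lists were chosen with earlier results of these data known. Named genes were RAI1 and NEUROG2, the 10 largest rises and falls with a mean of at least 20 CPM and no overlap, the 6 largest gains and losses of CPM, the 6 largest positive and negative differences from WT, and from each list the largest changes, the highest levels and members that did not pass. Further list members were named after their values were seen. Some genes are not reported here.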

Additional observations from a re-analysis of the deposited data

Results flagged for a closer look

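In 122 groups of 4 libraries, 15 held a library far from the other 3. A rate of 1 in 20 would give 6.1 if the groups were independent. They were not, since genes and lists were measured in the same libraries and were chosen with these data known. The count therefore cannot show an excess over chance. ARPP21 stood at 27.98 CPM in day 3 replicate 2 against 42.36 to 45.03 in the others. CDH1 was 113.2 CPM and ESRP1 106.7 CPM in day 0 replicate 1, against at most 8.133 and 6.226. FLNA was 1909 CPM in day 0 replicate 4 (others 2288 to 2361) and 558.9 CPM in day 3 replicate 2 (257.5 to 281.1), and PODXL 24.45 CPM in the latter library (12.18 to 14.06).

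List medians on the log2(CPM + 1) scale also stood apart. Day 3 replicate 1 was low for replication (5.124, others 6.053 to 6.222) and glycolysis (7.306) and high for peripheral neuron genes (3.203). HOX genes had medians of 2.35 in day 0 replicate 1 and 1.319 in day 3 replicate 1, against at most 0.3992 and 0.304. Day 0 replicate 4 was high for Nodal and FGF genes (6.314), day 3 replicate 4 for BMP and ID genes (1.382) and day 3 replicate 2 for fibroblast and endothelial genes (2.222), and day 0 replicate 2 was low for channels (2.157).

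The change from day 0 to day 3 differed between KO and WT at 2118 genes and between KO and HET at 61, by edgeR interaction terms. On the log2 scale the largest positive differences from WT were OPRK1 (8.564, adjusted p 4.916e-08), TMEM196 (6.932, 1.716e-06), LRRTM3 (6.543, 1.011e-06), ARSF (6.43, 0.02778), INSM2 (6.306, 6.05e-05) and NRN1 (5.285, 0.0108). The largest negative ones were BMP3 (-8.646, adjusted p 2.102e-06), KDR (-5.41, 0.01639), CD9 (-4.709, 8.831e-06), RARRES2 (-4.192, 0.01318), CNTN4 (-3.805, 1.642e-05) and ADSS2 (-3.745, 1.472e-11). The ARSF difference lost its call without KO day 0 replicate 1 (adjusted p 0.058) or 3 (0.052), without WT day 0 replicate 2 (0.0735) or 4 (0.147) and without KO day 3 replicates 1 and 2 (0.0832). That of RARRES2 lost it in the last of these (0.134).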

How the results depend on the processing

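The 13088 genes called between the days became 8508 in limma on TPM and 12320 to 13354 with 1 library left out. The 5903 genes beyond 2-fold ran from 5631 to 6116. The 2118 differences from WT became 321 on TPM, 4110 without KO day 3 replicates 3 and 4, 833 without replicates 1 and 2, and 1320 to 3140 with 1 library left out (1320 without KO day 3 replicate 1). The 61 differences from HET became 40 with the 16 libraries alone, 1010 without KO day 3 replicates 3 and 4, 32 without 1 and 2, and 34 to 90 with 1 left out. They fell by more than 1.5 times without HET day 0 replicate 1 (39) or 2 (35), HET day 3 replicate 1 (34), or KO day 0 replicate 1 (40), 3 (34) or KO day 3 replicate 1 (34). The small structural RNA share differed by 5.04 points, and by 2.30 to 7.37 with 1 library left out. The KDR difference from WT was -5.41 log2, and -5.85 to 1.17 with 1 library left out, the reversal coming without WT day 3 replicate 1. The other genes named by rule kept their direction. RAI1, ACTB, BMP3 and CNTN4 lost the call between the days, and ARSF, KDR and RARRES2 the difference from WT, in some alternative. Counts of list members stayed within 1.5 times in 988 refits and moved further in 76. On TPM, 5 chromatin switch genes were called higher and 7 lower. The rises there numbered 8 for cell-cycle inhibitors and stress-response genes and 0 for glycolysis. The cause of these shifts was not tested.

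Replicate numbers did not pair the KO libraries of day 0 with those of day 3. Deviations of same-numbered libraries correlated at -0.0271 to 0.0924, and those of other-numbered libraries at -0.103 to 0.115. Pairing by number between lines within a day was not tested. NEUROG2 at day 3 was highest in replicate 4 in each line (25580 CPM in WT, 18770 in HET and 11000 in KO). The main interaction fits and the permutations between lines took no account of the number. With the number as a replicate block, 12946 genes were called between the days, 5864 beyond 2-fold, 2546 against WT and 80 against HET, and the HOX list gave 5 lower and 2 higher. Depth limits genes near the floor of 3 counts.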

Other observations

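Transcript classes moved unequally in KO. Of 1253 tested lincRNA genes 33.1% were called higher and 18.4% lower, and of 1661 antisense genes 29.3% and 14.5%, against 30% and 36% of 15343 protein-coding genes. Median changes were 0.38, 0.30 and -0.09 log2. Without stated use of strand, reads of antisense genes cannot be told apart from those of their partners.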
